A study of Mus musculus with 8 samples.

Results

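Lumbar spinal cord microglia of control mice taken 3 days after sciatic nerve injury were compared with those of uninjured (naive) control mice, using the transcript counts of 2 single-cell libraries. The cells were the barcodes of these libraries with at least 1000 UMIs, at least 500 genes and at most 10% of UMIs from mitochondrial genes, where a UMI (unique molecular identifier) marks 1 captured mRNA molecule. This left 2117 of 2171 barcodes at day 3 and 568 of 609 barcodes in naive, together 2685 of the 14626 cells kept over the 8 libraries of the series. Both groups were C57BL/6 mice of the genotype Cx3cr1-yfp-creER/+, in which YFP and a tamoxifen-inducible Cre recombinase are made from 1 allele of Cx3cr1, and the day 3 mice had both sciatic nerves transected. Cx3cr1 is active in microglia and also in other macrophages and in monocytes, so the reporter alone does not separate them. Each library held YFP-positive sorted cells from the pooled lumbar cords of 3 young adult animals, and the methods describe a tamoxifen course before the experiments and roughly equal numbers of males and females. The other libraries were control day 1 and day 2, and naive, day 1, day 2 and day 3 of A20 cKO mice, which carry Tnfaip3 fl/fl beside the same Cx3cr1 allele. Their levels are given beside those of control naive and control day 3.

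Microglia are the resident macrophages of the spinal cord. When a peripheral nerve is cut, injured sensory neurons signal to microglia around their central terminals and around motor neurons, and the microglia enlarge, divide and change their secreted factors over the following days. Type I interferon acts through a receptor, JAK kinases and a complex of transcription factors to switch on antiviral genes, and microglia in injured or aged tissue can carry this signature. Chemokines such as CCL2 and CXCL10 attract monocytes and T cells.

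With 1 pooled library a group there was no replicate, so no test and no p-value is given. Levels are UMIs summed over the kept cells of a library and scaled to a library total of 1000000 (CPM), and differences are log2 ratios of day 3 over naive computed from UMIs plus 0.5. All intervals are 95%, and they cover counting error only, not the variation between mice or between preparations. A gene was counted as higher or lower when its ratio was past 2-fold, among the 6563 genes whose mean level over both libraries reached 20 CPM. A gene near 0 in one library could reach this mean only through the other and then had to differ.

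The naive library was the smaller one. It held 1620481 UMIs in kept cells with a median of 2780 UMIs and 1439 genes per cell, against 7286748 UMIs, 3191 UMIs and 1666 genes at day 3, so that 1 UMI was worth 0.617 CPM in naive and 0.137 CPM at day 3. The median mitochondrial share was 0.904% in naive and 1.51% at day 3. The libraries shared cell barcodes unequally, and control day 3 stood with the A20 cKO libraries rather than with the other control libraries. Day 3 shared 3 barcodes with control naive (2.27 per 1000000 possible pairs), and 10 and 11 with control day 1 and day 2 (1.38 and 1.41 per 1000000), but 35, 37, 17 and 20 with A20 cKO naive, day 1, day 2 and day 3 (5.41, 18.3, 11.2 and 15.9 per 1000000). Control naive also shared more per pair with A20 cKO day 1, day 2 and day 3 (8.83, 4.69 and 8.51 per 1000000), on 5, 2 and 3 barcodes. With A20 cKO naive and control day 1 and day 2 its rates were 2.20, 1.48 and 2.29 per 1000000. Of the kept cells, 54 at day 3 (2.55%) and 11 in naive (1.94%) had a barcode that another library also held. Several transcripts at or near 0 in control naive, day 1 and day 2 were found in day 3 and in every A20 cKO library. The 6 neutrophil markers summed to 0 CPM in naive, 39.7 at day 3, 0.142 and 0.126 in control day 1 and day 2, and 32.7 to 55.8 in the A20 cKO libraries. A difference in how the libraries were prepared and a difference between naive and injured cord cannot be told apart with these libraries.

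The kept cells carried the label's cell type. Of 8 microglia markers, at least 2 were found in 568 of 568 naive cells and in 2104 of 2117 day 3 cells. The 13 day 3 cells below that limit were shallow, with a median of 1108 UMIs. Oligodendrocyte markers summed to 152.4 CPM in naive and 225.8 at day 3, and at least 2 of them were found in 5.11% and 13.3% of cells, with Cldn11 at 0 in naive. Astrocyte markers summed to 166.0 and 264.7 CPM, with Slc1a2, Gja1, Gfap and Aqp4 at 0 in naive. Nearly all of these sums was Slc1a3 (161.1 and 252.4 CPM), found in 33.5% and 55.3% of cells. At least 2 neutrophil markers were found in 0 naive and 42 day 3 cells (1.98%). Monocyte markers went from 8.64 to 30.6 CPM and perivascular macrophage markers from 1.23 to 3.98 CPM. The microglia markers summed to 26322 and 18647 CPM. With the cells that held 2 markers of another type left out (534 naive and 1738 day 3 cells stay), 453 genes were past 2-fold higher and 151 lower, against 451 and 154 with them.

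The promoters of 6 genes that were higher at day 3 are shown as examples of windows that hold the motif of their group: the interferon-induced genes Cxcl10, Rsad2, Ifit3 and Ifit3b, and the cell division genes Mki67 and Top2a. They were chosen for holding it, and Ifit2, with the largest ratio of the interferon list, had no such motif in its window. Each line is the 250 bases before the start of the gene's RefSeq record on GRCm38.p6 (the build of mm10), 5′ to 3′ on the gene's strand. In the interferon-induced genes the capitals mark GAAANNGAAA, the core of the interferon-stimulated response element, and in the cell division genes they mark TTTGAA, the cell cycle genes homology region, both searched on both strands. The windows were Cxcl10 chr5:92348890-92349139 (minus strand), Rsad2 chr12:26456453-26456702 (minus strand), Ifit3 chr19:34583279-34583528 (plus strand), Ifit3b chr19:34607707-34607956 (plus strand), Mki67 chr7:135716380-135716629 (minus strand) and Top2a chr11:99024190-99024439 (minus strand).
Cxcl10: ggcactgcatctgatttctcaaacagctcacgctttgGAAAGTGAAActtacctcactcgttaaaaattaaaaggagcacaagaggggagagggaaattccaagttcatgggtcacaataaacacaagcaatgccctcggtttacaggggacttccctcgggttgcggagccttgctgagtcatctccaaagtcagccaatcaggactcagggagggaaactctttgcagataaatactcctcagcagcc
Rsad2: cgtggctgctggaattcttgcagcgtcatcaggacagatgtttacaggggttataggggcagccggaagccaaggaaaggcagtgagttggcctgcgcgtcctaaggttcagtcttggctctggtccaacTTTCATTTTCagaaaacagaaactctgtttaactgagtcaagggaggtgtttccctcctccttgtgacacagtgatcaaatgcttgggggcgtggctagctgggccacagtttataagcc
Ifit3: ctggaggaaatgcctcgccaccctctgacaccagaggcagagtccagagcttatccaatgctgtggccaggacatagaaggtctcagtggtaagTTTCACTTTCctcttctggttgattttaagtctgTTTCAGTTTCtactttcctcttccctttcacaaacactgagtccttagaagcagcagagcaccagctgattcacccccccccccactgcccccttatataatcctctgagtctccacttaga
Ifit3b: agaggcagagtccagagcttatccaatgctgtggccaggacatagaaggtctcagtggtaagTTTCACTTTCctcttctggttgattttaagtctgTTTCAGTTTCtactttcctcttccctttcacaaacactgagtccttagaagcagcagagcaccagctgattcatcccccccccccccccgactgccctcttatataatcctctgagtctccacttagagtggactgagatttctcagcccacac
Mki67: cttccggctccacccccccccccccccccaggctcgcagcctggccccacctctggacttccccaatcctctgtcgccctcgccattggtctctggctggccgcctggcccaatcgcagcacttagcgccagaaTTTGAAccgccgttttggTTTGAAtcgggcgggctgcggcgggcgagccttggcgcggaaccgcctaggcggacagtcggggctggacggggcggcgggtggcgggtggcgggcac
Top2a: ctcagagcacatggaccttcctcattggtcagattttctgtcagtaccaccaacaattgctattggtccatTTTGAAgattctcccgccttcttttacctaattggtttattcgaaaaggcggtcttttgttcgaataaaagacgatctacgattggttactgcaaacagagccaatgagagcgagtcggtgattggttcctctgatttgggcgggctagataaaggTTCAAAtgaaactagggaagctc

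The response element began 213 bases before the start in Cxcl10 and 120 bases before it in Rsad2. Ifit3 held it at 156 and 122 bases and its neighbour Ifit3b at 188 and 154 bases. The windows of Ifit3 and Ifit3b were alike: aligned without gaps, 188 of 218 overlapping bases were the same (86.2%). Whether reads of one copy were counted for the other was not tested, so their separate levels are uncertain. At least 1 GAAANNGAAA lay in the window of 17 of 36 interferon-list genes with a RefSeq window (47.2%), against 3.46% of 27025 genes and 3.43% of the genes that reached the level limit. TTTGAA lay in 7 of 15 mitotic genes (46.7%), against 18.3% of all genes and 12.5% of those at the level limit, at 116 and 98 bases in Mki67 and at 179 and 23 bases in Top2a. CCAAT, which NF-Y binds, lay in 13 of 15 mitotic genes (86.7%) and 7 of 10 replication genes (70.0%), against 37.5% of all and 39.8% at the level limit. TTTNNCGC, a core of E2F sites, lay in 4 of 10 replication genes, against 4.94% of all and 9.20% at the level limit. A match says only that these letters are in the window.

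Over all genes the libraries were close. The median log2 ratio was 0.05, with 5% to 95% of genes between -0.79 and 1.13, and 90.8% of genes were within 2-fold. Higher at day 3 were 451 genes (6.87%) and lower were 154 (2.35%). Past 4-fold were 86 higher and 20 lower genes. The 12 largest positive ratios were those of Ttr, which rested on 1 barcode, of genes of cell division, interferon-induced genes, the chemokines Cxcl10 and Ccl2, the immediate-early genes Fos and Fosb, and Ddit4. The 12 largest negative ratios were led by Exosc2 and Slx1b and included the lipid carrier Apoe, the cytokine Tgfb1 and the purine receptor P2ry13.

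**Figure D1:**
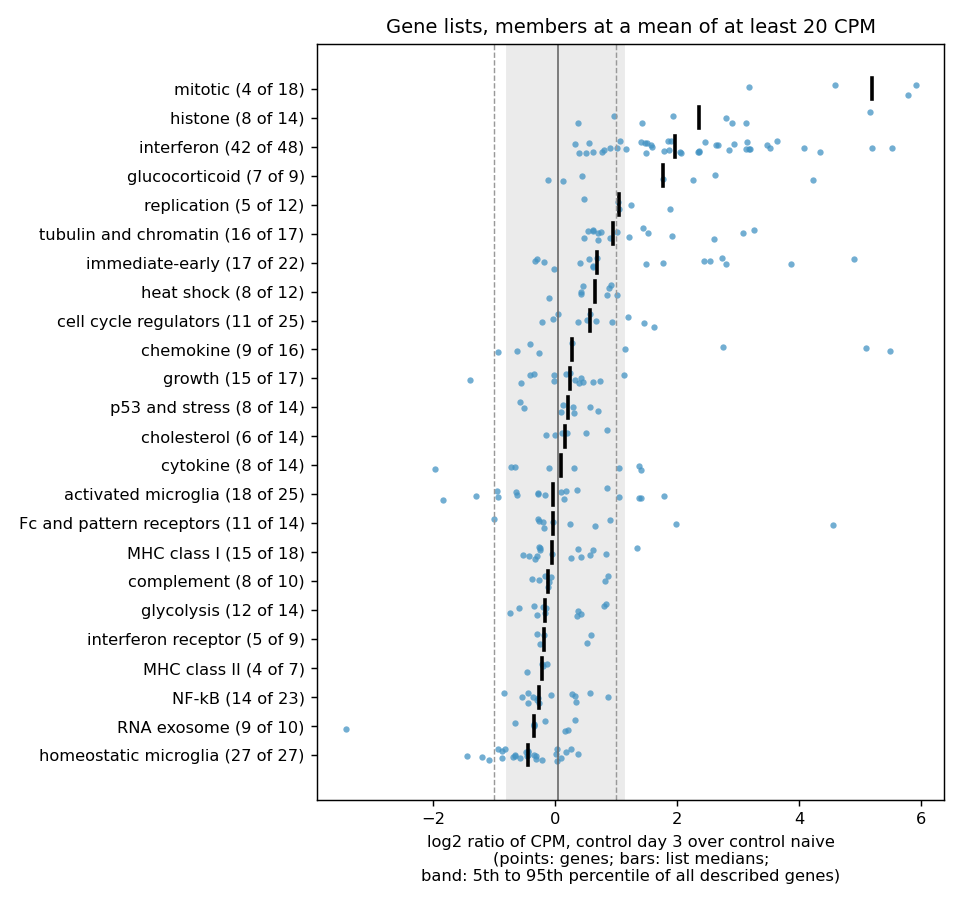
Log2 ratio of CPM, control day 3 over control naive, for the members of 24 gene lists at a mean of at least 20 CPM (points), with list medians as bars, the count of members shown out of each list, dashed lines at 2-fold and a band for the 5th to 95th percentile of all genes described. The mitotic, histone, interferon and glucocorticoid medians (5.19, 2.36, 1.97 and 1.77) lie right of the band and the homeostatic microglia median (-0.45) is the lowest; Hist1h1b, with 0 UMIs in naive, is drawn at its lower bound.

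Dividing cells were found at day 3 and almost none in naive. Mki67 (chr7:135689784-135716361, minus strand), which encodes the proliferation antigen Ki-67, had 4 UMIs in naive and 1120 at day 3. Its level was 2.47 CPM (0.673 to 6.32) in naive and 153.7 (144.8 to 163.0) at day 3, a log2 ratio of 5.79 (4.60 to 7.84) or 55.4-fold. Across the other libraries Mki67 stood at 1.64 and 92.2 CPM in control day 1 and day 2, and at 51.1, 64.7, 269.3 and 125.1 CPM in A20 cKO naive, day 1, day 2 and day 3. Control naive and control day 1 were the low libraries, and every A20 cKO library, its naive one included, was above them. Top2a (chr11:98992943-99024189, minus strand), the topoisomerase that untangles DNA in mitosis, went from 6.17 CPM (2.96 to 11.3) to 156.0 (147.1 to 165.4), 24.1-fold.

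All 18 core mitotic genes were past 2-fold higher at day 3, against 9.97% of 13176 genes with no level limit, although only 4 reached a mean of 20 CPM: Mki67, Top2a, the chromosomal passenger Birc5 and the centromere protein Cenpf, each past 2-fold, with a median log2 ratio of 5.19 against 0.05 over all genes. These 4 reached the limit only through day 3. Birc5 had 1 UMI in naive and 406 at day 3 (5.91, 4.01 to 11.80). Cenpf went from 6.17 to 58.7 CPM. Below the level limit, the mitotic kinase Cdk1 had 7 UMIs in naive and 168 at day 3 and the cyclin Ccnb2 1 and 283. Together the 18 genes summed to 32.7 CPM in naive and 717.1 at day 3, against 26.5 and 889.1 CPM in control day 1 and day 2 and 273.1, 329.9, 1202 and 653.2 CPM in the A20 cKO series.

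Genes of DNA replication had smaller ratios than mitotic genes. Each count of a list stands against the share of all genes past 2-fold, which was 6.87% for higher and 2.35% for lower genes. Of 12, 5 passed the level limit and 4 were past 2-fold: Mcm6 (1.89) and Mcm7 (1.02), subunits of the replicative helicase, the sliding clamp Pcna (23.5 to 56.4 CPM, 1.25) and the thymidylate synthase Tyms (20.4 to 42.7 CPM, 1.05). The fifth, Mcm3, had a log2 ratio of 0.46. With cells thinned to 2000 UMIs or with the mean of cell CPM, 1 replication gene stayed past 2-fold. The same was true without cells holding 2 markers of another type, and without interferon-high cells (defined below) none did. Wherever interferon-high, mitotic or S-phase cells were left out, they were picked on unthinned counts, where deeper cells reach a limit more easily. Of the tubulin and chromatin genes 8 of 16 were past 2-fold, with Cks1b (3.26), a cyclin-dependent kinase subunit, and Stmn1 (41.4 to 353.5 CPM, 3.09), a microtubule regulator, at the top. The condensin subunits Smc2 (2.61) and Smc4 (1.91), the chromatin proteins Hmgb2 (1.53) and Hmgn2 (1.44) and the variant histones H2afz (1.20) and H2afx (1.01) followed. The tubulins Tubb5 (0.48) and Tuba1b (0.62) were within 2-fold. Of the replication-type histone genes 6 of 8 were past 2-fold. Summed, the histone list stood at 208.6 CPM in naive, 371.2 and 508.6 in control day 1 and day 2, and 833.0 at day 3. In the A20 cKO series it was 758.8, 462.0, 1110 and 776.0 CPM. Control day 2 was thus below control day 3, unlike in the mitotic sum. Without the mitotic and S-phase cells described below, 1 of 11 tubulin and chromatin genes at the level limit was past 2-fold higher, and of 5 histone genes 1 was higher and 1 lower. Hist1h1b, a linker histone, had 0 UMIs in naive and 483 at day 3, at least 5.16 on the log2 scale against a floor of 3 counts. Hist1h1e went from 40.7 to 285.7 CPM (2.80). Most such histone mRNAs lack the poly(A) tail that the kit captures and many histone genes are near-identical copies, so their split between names is uncertain.

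Among cell cycle regulators 3 of 11 were past 2-fold, and they act in opposite directions. Higher were Ccnd3 (77.1 to 213.4 CPM, 1.46), a D cyclin that drives entry into the cycle, and the inhibitors Cdkn2d (1.61) and Cdkn1b (37.0 to 85.1 CPM, 1.19). The D cyclin Ccnd1 (0.38) and its kinases Cdk4 (-0.03) and Cdk6 (0.04) were within 2-fold. Of the growth genes, which serve ribosome and polyamine synthesis, Ncl was higher (1.13) and Odc1 lower (-1.39) among 15.

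Cells were also counted one by one. To remove the difference in depth, each cell was thinned to 2000 UMIs, which left out 66 of 568 naive cells and 239 of 2117 day 3 cells as too shallow. A mitotic cell was one with at least 3 of the 18 mitotic genes. There was 1 such cell among 502 in naive (0.199%, 0.00504 to 1.10) and 144 among 1878 at day 3 (7.67%, 6.50 to 8.97), a difference of 7.47 percentage points (6.02 to 8.77). Without thinning the shares were 0.176% and 10.5%. With at least 3 of the 12 replication genes and fewer than 3 mitotic genes, S-phase cells were 0 of 502 in naive, which allows a share of up to 0.598% by the floor of 3 counts and 0.732% by the exact interval, and 55 of 1878 at day 3 (2.93%, 2.21 to 3.80). They were 0.880% and 5.90% without thinning, and 0.598% and 3.25% when thinned with another random seed. Both classes are ranges: 81 further day 3 cells had 2 mitotic genes and 29 of the 144 had exactly 3. In control day 1 and day 2 the mitotic share was 0.0620% and 13.2%, and in the A20 cKO series 2.53%, 2.53%, 12% and 6.51%.

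**Figure D2:**
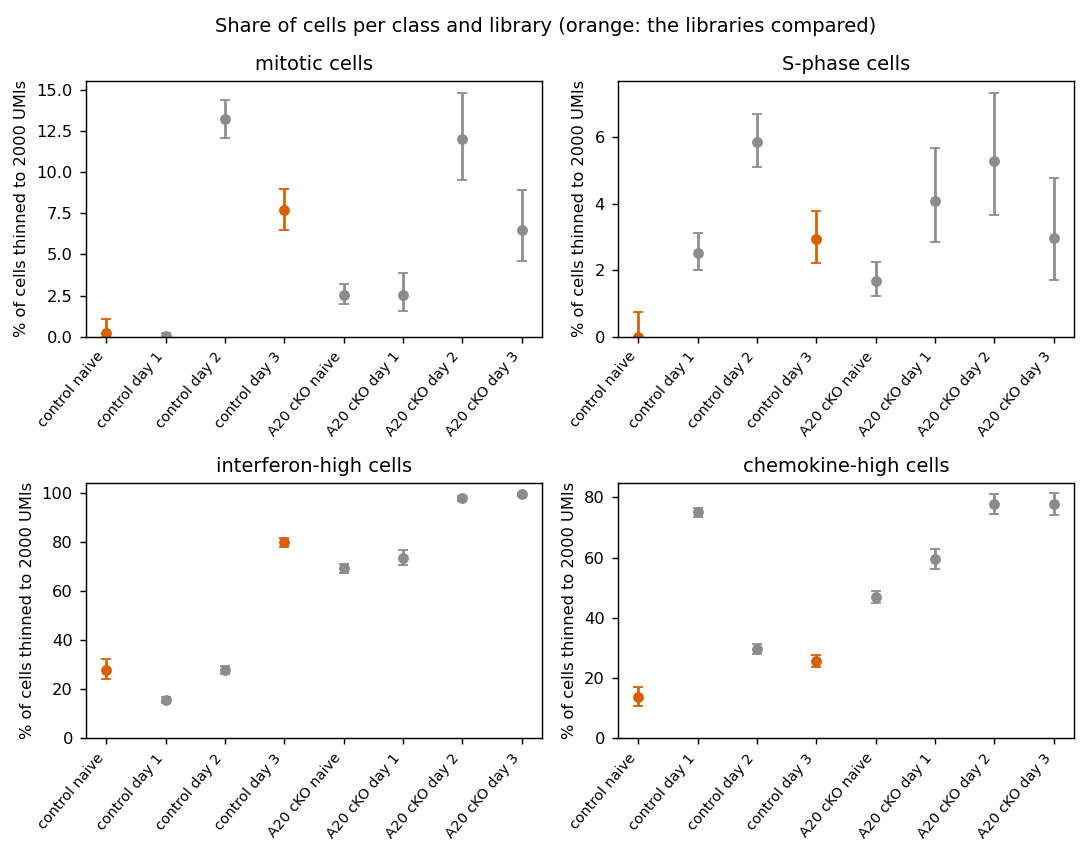
Percentage of cells per library, after thinning to 2000 UMIs, that held at least 3 mitotic genes, at least 3 replication genes and fewer mitotic ones, at least 5 interferon-list genes or at least 3 chemokine genes; points are libraries, bars are exact Clopper-Pearson 95% intervals, and control naive and control day 3 are orange. Mitotic cells were 0.199% in naive and 7.67% at day 3, below the 13.2% of control day 2, while interferon-high cells reached 80.0% at day 3 against 15.7% and 27.8% in control day 1 and day 2.

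Within day 3, mitotic cells differed from non-dividing cells mostly in the genes of division that had not been used to pick them. Summed over lists, histone genes were 3.25 higher on the log2 scale, tubulin and chromatin genes 2.02 and growth genes 0.69. Interferon-list genes were 0.30 higher, homeostatic microglia genes were 0.44 lower (-0.44) and immediate-early genes 0.45 lower (-0.45). These sums were taken from cells thinned to 2000 UMIs. Before thinning the mitotic cells were deeper, with a median of 5009 UMIs against 3376 over all thinned day 3 cells. Stmn1 was 2.77 higher and Hmgb2 3.35 higher in mitotic cells on the log2 scale.

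Interferon-induced genes were higher as a group. Of 48 interferon-induced genes listed, 42 passed the level limit, all 42 had a positive log2 ratio, and 34 were past 2-fold, against 6.87% of all genes. Their median log2 ratio was 1.97. Summed, the list stood at 2318 CPM in naive and 8114 at day 3. It was 1630 and 2107 CPM in control day 1 and day 2, so control day 3 was the only control library above naive, and 7344, 8263, 12057 and 12967 CPM in the A20 cKO series, whose naive library was already close to control day 3.

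Ifit2 (chr19:34550694-34576419, plus strand), which binds viral RNA, had the largest ratio of the list (5.53, 4.63 to 6.83). It had 8 UMIs in naive and 1761 at day 3, that is 4.94 CPM (2.13 to 9.73) and 241.7 CPM (230.5 to 253.2), 46.1-fold. It was at 5.05 and 8.16 CPM in control day 1 and day 2 and at 168.9, 187.6, 225.5 and 305.0 CPM in the A20 cKO series. By these Ifit2 values the libraries formed a low set, control naive, day 1 and day 2, and a high set, control day 3 and the 4 A20 cKO libraries. The sets were named from Ifit2 itself, and how many of all genes split the libraries in this way was not counted. The same split held for Slfn5 (chr11:82951349-82964840, plus strand), a nuclear Schlafen protein. Slfn5 was at 3.09, 3.06 and 2.97 CPM in control naive, day 1 and day 2, at 124.6 CPM in control day 3 and between 71.5 and 145.2 CPM in A20 cKO.

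Rsad2 (chr12:26442746-26456452, minus strand), the antiviral enzyme viperin, went from 4.94 to 105.9 CPM (20.2-fold), and Zbp1 (chr2:173206612-173218923, minus strand), a sensor of Z-form nucleic acid, from 9.26 to 118.2 CPM (12.4-fold). Ifit3 went from 41.4 to 363.3 CPM (3.12) and Ifit3b from 13.6 to 122.3 CPM (3.14), the pair with the alike promoters shown above. Among regulators of the response, Irf7, the factor that amplifies interferon production, went from 26.5 to 171.0 CPM (2.67). The transcription factor Stat2 went from 27.2 to 114.5 CPM (2.06). Its partner Irf9 was at 109.2 and 137.5 CPM (0.33), within 2-fold. Usp18, which dampens signalling at the receptor, was higher as well (2.93). The ubiquitin-like Isg15 went from 37.6 to 235.9 CPM (2.64), the kinase Eif2ak2 (PKR) to 215.6 CPM (2.35), and Ifi27l2a from 150.6 to 772.6 CPM (2.36). Ifi204 (51.8 to 578.7 CPM, 3.47), a DNA-binding p200 protein, Gbp2 (4.09) and Mx1 (3.19), which are antiviral GTPases, were among the largest. The 8 members within 2-fold included Irf1 (0.39), Ifi35 (0.50), Lgals3bp (0.56), Ddx58 (0.76) and Bst2 (0.91).

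**Figure D3:**
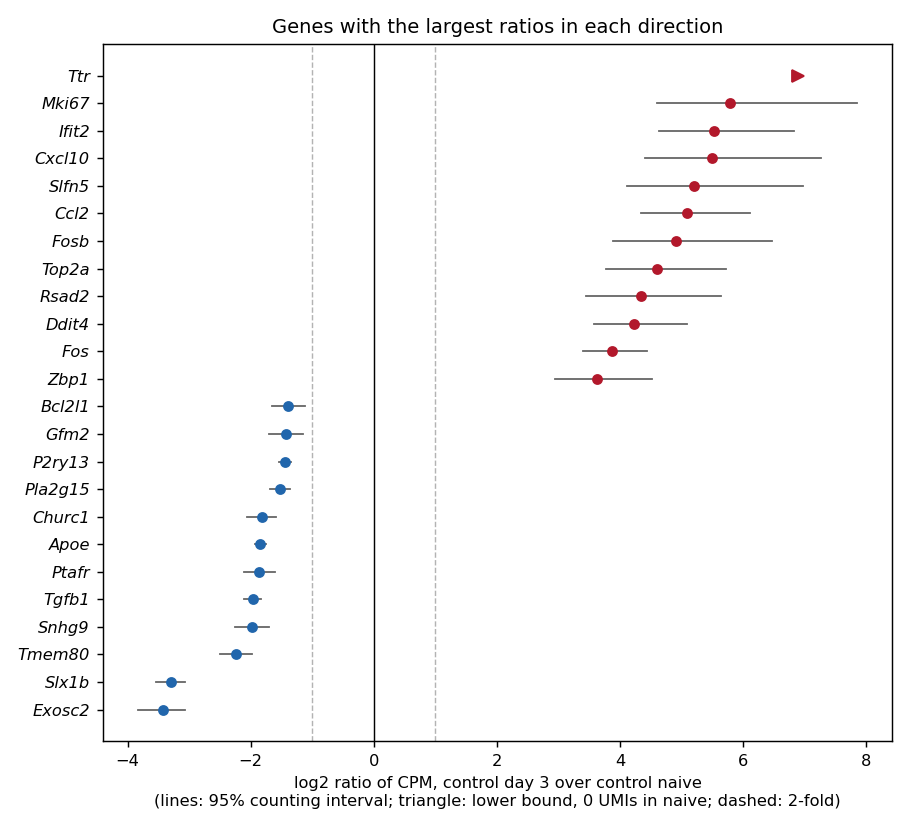
Log2 ratio of CPM, control day 3 over control naive, of the 12 genes with the largest ratio in each direction among genes reaching a mean of 50 CPM; lines are 95% counting intervals, the triangle is a lower bound and dashed lines mark 2-fold. The higher genes run from Zbp1 (3.63) to Mki67 (5.79) and Ttr (at least 6.89), and the lower ones from Bcl2l1 (-1.39) to Exosc2 (-3.43).

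The receptors of interferon were within 2-fold. Of 9 listed, 5 passed the level limit and none was past 2-fold: Ifnar1 (0.59) and Ifnar2 (-0.18), the receptor for type I interferon, Jak1 (0.52), and Ifngr1 (-0.25) and Ifngr2 (-0.30), the receptor for interferon gamma. Ifnb1, the beta interferon gene, had 0 UMIs in naive and 3 at day 3, and Ifng had none in either, so both ligands were at or under the floor of 3 counts, and a difference was not detectable at this depth. Antigen presentation genes, which interferons also induce, differed from the interferon list. Of 15 MHC class I genes 1 was past 2-fold, the peptide transporter Tap1 (1.34), and the median was -0.05. B2m, the class I light chain, was at 5041 CPM in naive and 4202 at day 3 (-0.26), and the heavy chains H2-D1 (1514 and 1045 CPM, -0.53) and H2-K1 (457.9 and 384.0 CPM, -0.25) were within 2-fold too. In A20 cKO naive the same genes stood at 8053, 3358 and 1231 CPM, above both control libraries, so the high levels of Ifit2 and Slfn5 in A20 cKO naive and control day 3 were not matched by like levels of class I genes. The 4 MHC class II genes had a median of -0.21.

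Per cell, day 3 cells held transcripts of more interferon-list genes than naive cells at the median. After thinning, the median number of interferon-list genes with a UMI was 3 in naive and 8 at day 3. Interferon-high cells, with at least 5, were 141 of 502 (28.1%) in naive and 1503 of 1878 (80.0%) at day 3, a difference of 51.9 percentage points (47.5 to 56.1), and 52.3% and 88.6% without thinning. The limit cuts a continuous range: 17.9% of naive and 8.57% of day 3 cells lay 1 gene below it. A tail of cells with 15 or more interferon genes held 21.1% of day 3 cells. Ifit2 was found in 1.20% of naive and 24.4% of day 3 cells at 2000 UMIs, Slfn5 in 0.598% and 16.8%, Rsad2 in 0.797% and 10.3%, and Ifi204 in 8.57% and 49.9%. Among the 13 day 3 cells with few microglia markers, all shallow, Ifit2 and Ifit3 were found in none and Isg15 in 1.

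**Figure D4:**
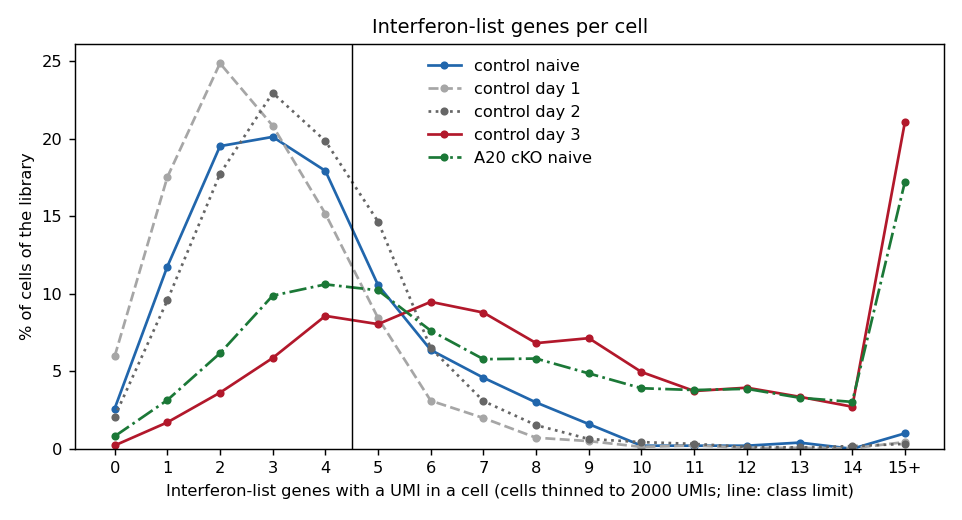
Percentage of the cells of a library (vertical axis) by the number of interferon-list genes with a UMI (horizontal axis, 15 and above together), after thinning to 2000 UMIs, for the control libraries and A20 cKO naive; the vertical line marks the limit of 5 genes. The control naive, day 1 and day 2 curves peak at 2 or 3 genes, while those of control day 3 and A20 cKO naive are spread out and end with 21.1% and 17.2% of cells at 15 or more.

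Dividing and interferon-high cells were not separate. Of the 144 mitotic day 3 cells 122 (84.7%) were also interferon-high, against 80.0% of all thinned day 3 cells, and of the 55 S-phase cells 47 (85.5%). Compared with the rest of day 3, interferon-high cells had a homeostatic sum 0.17 lower (-0.17) and an MHC class I sum 0.19 higher on the log2 scale. Their chemokine sum was 1.63 higher, with Cxcl10 2.74, Ccl12 2.44 and Ccl2 2.28 higher. Interferon-high cells had a median of 3458 UMIs.

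A few chemokines were far higher at day 3 and others were not. Cxcl10 (chr5:92346638-92348889, minus strand), a ligand of CXCR3 on T cells, had 5 UMIs in naive and 1115 at day 3, or 3.09 CPM (1.00 to 7.20) and 153.0 CPM (144.2 to 162.3), 45.1-fold. It stood at 10.9 and 14.4 CPM in control day 1 and day 2 and at 253.1, 353.0, 494.1 and 431.3 CPM in A20 cKO, the same low and high sets as Ifit2. Ccl2 (chr11:82035571-82037453, plus strand), the main monocyte attractant, went from 7.41 CPM (3.83 to 12.9) to 262.9 (251.3 to 275.0), 34.1-fold. Unlike Cxcl10, Ccl2 was highest among the control libraries at day 1, with 502.5 CPM, and lower at day 2, with 88.6 CPM. Ccl12, a close relative of Ccl2 that binds the same receptor, went from 294.4 to 1991 CPM (2.76), with 3406 and 1088 CPM at day 1 and day 2.

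Of 9 chemokines at the level limit 4 were past 2-fold, all higher, against 6.87% of all genes: Cxcl10, Ccl2, Ccl12 and Ccl5 (15.4 to 34.9 CPM, 1.15). Without interferon-high cells 1 of 6 was higher and 1 lower, and Ccl5 was at -1.27. Ccl3 (87.0 and 65.2 CPM, -0.42) and Ccl4 (140.1 and 116.4 CPM, -0.27), inflammatory chemokines, and Ccl9 (-0.94) and Ccl6 (-0.63) were within 2-fold. In control day 1, Ccl3 and Ccl4 stood at 891.8 and 778.6 CPM. Cxcl13, a B cell attractant, had 0 UMIs in naive and 21 at day 3, and 535.6 CPM in A20 cKO naive, so it did not share the pattern of Cxcl10. Cells with at least 3 chemokine genes were 69 of 502 in naive (13.7%) and 482 of 1878 at day 3 (25.7%), a difference of 11.9 percentage points (8.11 to 15.3), against 75.1% in control day 1. Of those 482 cells 420 were interferon-high (87.1%, against 80.0% of all day 3 cells), and in naive 16 of the 69 were (23.2%, against 28.1% of all naive cells). The top cell held 7.09% of all Cxcl10 UMIs at day 3.

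Among cytokines 3 of 8 were higher and 1 lower, against 6.87% and 2.35% of all genes, and with cells thinned to 2000 UMIs 1 was higher and 1 lower. Spp1 (osteopontin, 22.8 to 61.3 CPM, 1.41), the growth factor Csf1 (14.8 to 39.1 CPM, 1.37) and Tnf (16.7 to 34.9 CPM, 1.04) were higher, while Il1a (-0.67) was within 2-fold. The lower one was Tgfb1 (chr7:25687002-25705077, plus strand), which keeps microglia in their resting state. It had 900 UMIs in naive and 1032 at day 3, or 555.4 CPM (519.7 to 592.9) and 141.6 CPM (133.1 to 150.5), 3.92-fold lower. Tgfb1 was at 434.6 and 510.3 CPM in control day 1 and day 2 and at 246.3, 239.7, 169.8 and 217.6 CPM in A20 cKO. Control day 3 was the lowest of the 8 libraries, and all A20 cKO libraries were below the other control libraries. None of 14 NF-kB genes was past 2-fold. Their median was -0.27, with the inhibitor Nfkbia at 0.87, the adhesion molecule Icam1 at -0.83 and Tnfaip3 itself at -0.26.

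Immediate-early genes were partly higher. Of 17, 8 were past 2-fold, against 6.87% of all genes: Fosb (4.90), Fos (3.87), Klf2 (2.81), Egr1 (2.73), Klf4 (2.54), Dusp1 (2.44), Ier2 (1.77) and Jun (1.48), while Atf3 (-0.29) and Ier5 (-0.34) were not. They encode transcription factors and a phosphatase made within minutes of a stimulus, and also during tissue dissociation, whose part here was not tested. Fos (chr12:85473890-85477273, plus strand) went from 20.4 CPM (14.0 to 28.6) to 301.2 (288.8 to 314.1). In the other libraries Fos stood at 4105 and 185.9 CPM in control day 1 and day 2 and at 507.6, 13.2, 21.1 and 503.7 CPM in A20 cKO naive, day 1, day 2 and day 3. All 3 injured control libraries were above control naive, while in A20 cKO the naive library was among the highest and day 1 and day 2 were low. Fosb (chr7:19302696-19310051, minus strand) had the same order of libraries within each genotype, with 3.70 CPM in control naive and 553.6, 24.4 and 119.9 CPM on the 3 days after injury, beside 110.2, 1.65, 5.93 and 88.1 CPM in the A20 cKO series. The summed list was 2905 CPM in naive, the lowest control value, 31268, 3619 and 5156 CPM in control day 1, day 2 and day 3, and 7857, 2414, 2079 and 6115 CPM in A20 cKO. Of the heat shock genes, another stress group, 1 of 8 was past 2-fold, the chaperone Hspa5 of the endoplasmic reticulum (454.2 to 912.5 CPM, 1.01), which was within 2-fold under 8 of the other settings tried, TMM scaling among them. Hspa1a had 0 UMIs in naive and 4 at day 3, against 155.4 CPM in control day 1.

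Genes that the glucocorticoid receptor switches on were also partly higher. Of 7, 4 were past 2-fold, against 6.87% of all genes, and the median was 1.77. Ddit4 (chr10:59949669-59951834, minus strand), an inhibitor of the growth kinase mTORC1, went from 9.87 CPM (5.64 to 16) to 190.8 (180.9 to 201.1), 18.7-fold. Fkbp5, a co-chaperone of the receptor, went from 48.8 to 300.7 CPM (2.62), Tsc22d3 (GILZ) from 93.2 to 319.2 CPM (1.77), and the clock gene Per1 from 8.02 to 39.7 CPM (2.25). Below the level limit, Zbtb16 had 0 UMIs in naive and 85 at day 3, and Klf9 1 and 88. The receptor gene Nr3c1 was at 0.44. Of the 7 genes, 3 were within 2-fold, and the lowest was Errfi1 at -0.12. Ddit4 stood at 8.04 and 23.2 CPM in control day 1 and day 2 and at 256.4, 98.7, 95.6 and 66.9 CPM in A20 cKO. Fkbp5 stood at 36.5 and 46.8 CPM in control day 1 and day 2, at 304.6 CPM in A20 cKO naive and at 183.4 CPM in A20 cKO day 3. Both genes were thus high in control day 3 and in A20 cKO naive, a library without nerve injury. At 2000 UMIs Ddit4 was found in 2.19% of naive and 31.9% of day 3 cells, at 1.53 UMIs per positive day 3 cell, and Fkbp5 in 8.37% and 47.7%, so the higher levels were spread over many cells.

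**Figure D5:**
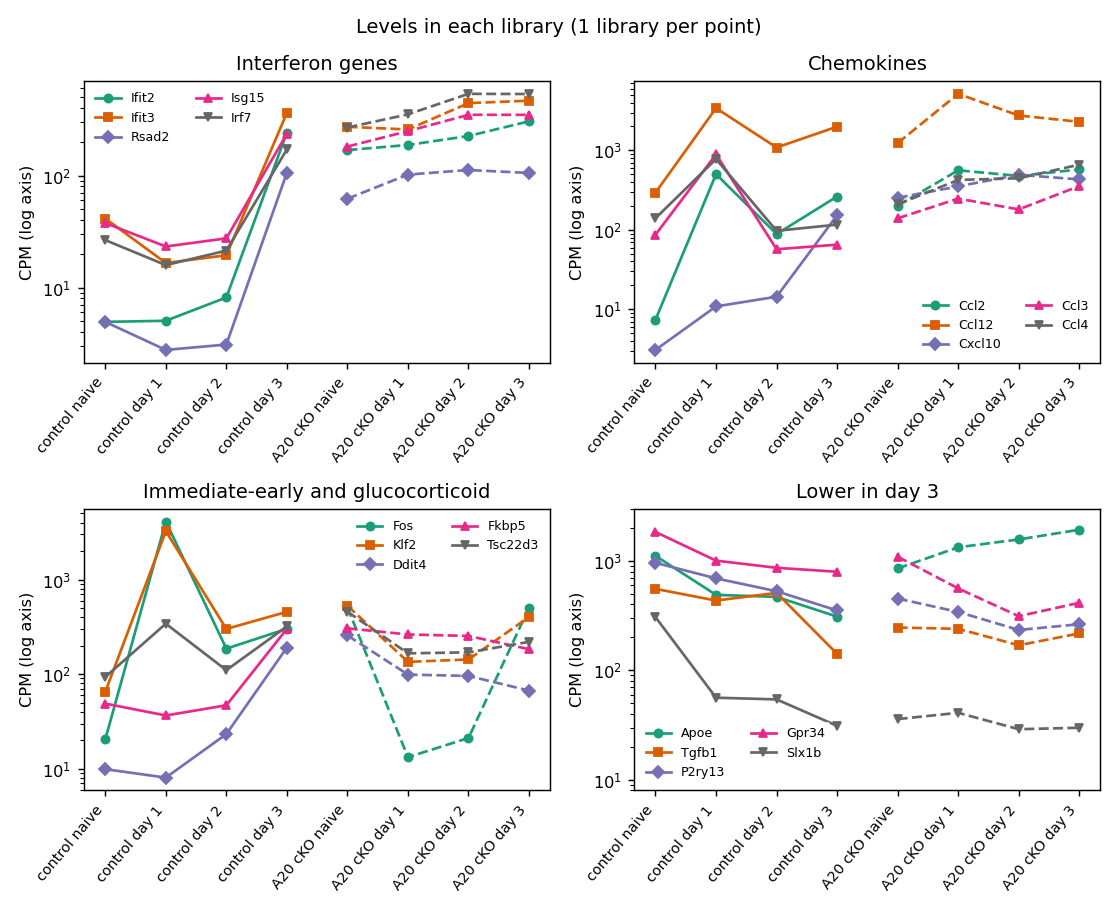
Level in CPM (vertical log axis) in each of the 8 libraries (horizontal axis) of 5 genes per panel: interferon genes, chemokines, immediate-early and glucocorticoid genes, and genes lower at day 3; each point is 1 library, and lines join the libraries of a genotype (solid control, dashed A20 cKO). Ifit2 and Rsad2 were low in control naive, day 1 and day 2 and high in control day 3 and all A20 cKO libraries, whereas Ccl2, Ccl12 and Fos were highest among control libraries at day 1.

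Genes of resting (homeostatic) microglia were a little lower as a group. Of 27, all at the level limit, 3 were past 2-fold and lower, against 2.35% of all genes, and none was higher. The median was -0.45, with 20 of 27 below 0. The list summed to 119620 CPM in naive and 74486 at day 3. P2ry13, an ADP receptor, had 1557 UMIs in naive and 2570 at day 3, that is 960.8 and 352.7 CPM (-1.45), with 693.2 and 528.7 CPM in control day 1 and day 2 and 453.0, 342.1, 234.0 and 264.0 CPM in A20 cKO. Gpr34, a lipid receptor, was at -1.21 and the protease inhibitor Cst3 at -1.09. Within 2-fold were P2ry12 (-0.88), Trem2 (-0.83), Cx3cr1 (-0.58), Csf1r (-0.48) and Tmem119 (-0.45), and the transcription factor Sall1 (-0.66). The share of cells with P2ry13 at 2000 UMIs was 83.1% in naive and 48.7% at day 3, against 99.6% and 95.7% for P2ry12.

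Genes of activated microglia were past 2-fold in both directions. Of 18, 4 were higher, against 6.87% of all genes: Cst7 (9.87 to 35.0 CPM, 1.78), Spp1, Csf1 and the receptor Axl (25.3 to 52.7 CPM, 1.04). Lower were 2, against 2.35% of all genes: Apoe and the lipase Lpl (69.7 to 28.3 CPM, -1.31). The median was -0.03. With cells thinned to 2000 UMIs 1 was higher and 2 lower, and without interferon-high cells 1 was higher and none lower, with Cst7 at 0.44, Axl at 0.33 and Lpl at -0.41. Gpnmb had no UMI in either library and Igf1 had 0 and 10 UMIs. Apoe (chr7:19696109-19699188, minus strand), the main lipid carrier of the nervous system, was at 1113 CPM in naive and 310.0 (297.4 to 323.1) at day 3, 3.59-fold lower. It was at 489.8 and 469.7 CPM in control day 1 and day 2 and at 853.9, 1333, 1573 and 1928 CPM in A20 cKO. A single naive cell held 20.8% of the naive Apoe UMIs. Among cells with fewer than 5 interferon genes before thinning (271 naive and 242 day 3 cells) the log2 ratio was -0.01. At 2000 UMIs Apoe was found in 57.6% of naive and 20.9% of day 3 cells. Of 11 Fc and pattern receptors 2 were higher, Cd244 (3.70 to 94.6 CPM, 4.56), a receptor of the SLAM family, and the Fc receptor Fcgr4 (1.98). Cd244 was at 51.8 and 108.9 CPM in control day 1 and day 2 and at 33.4 CPM in A20 cKO naive, so among the control libraries it was low in naive alone. None of 8 complement genes was past 2-fold (median -0.12), nor any of 12 glycolysis genes (-0.16), 6 cholesterol genes (0.16) or 8 p53 genes (0.21).

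Of the 12 genes with the largest negative ratios 8 belonged to none of the lists. Exosc2 (chr2:31670715-31681349, plus strand), a subunit of the RNA exosome, had 200 UMIs in naive and 83 at day 3, or 123.4 CPM (106.9 to 141.8) and 11.4 CPM (9.07 to 14.1), 10.8-fold lower. It was at 66.2 and 109.2 CPM in control day 1 and day 2 and at 11.4, 24.8, 14.2 and 15.7 CPM in A20 cKO, again with control day 3 beside the A20 cKO libraries. The other 8 exosome genes at the level limit were between -0.66 and 0.32. Slx1b (chr7:126689468-126695784, minus strand), a structure-specific endonuclease subunit, was at 306.7 CPM in naive and 31.2 at day 3, 9.83-fold lower, and between 29.0 and 56.3 CPM in the other 6 libraries, so that naive stood alone. The same held for Tmem80 (chr7:141327739-141337156, plus strand), at 162.9 CPM in naive, 34.5 at day 3 and 32.2 to 45.3 CPM elsewhere. Exosc2 was found in 17.1% of naive and 2.34% of day 3 cells at 2000 UMIs and Slx1b in 45.4% and 6.50%.

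Ptafr (chr4:132564067-132582683, plus strand), the receptor for platelet-activating factor, was at 146.9 and 40.5 CPM (-1.86), and Churc1 at 158.0 and 44.6 CPM (-1.83). Ptafr was at 48.9 and 52.3 CPM in control day 1 and day 2 and at 35.6 to 64.6 CPM in A20 cKO. For Churc1 these values were 67.3 and 67.2 CPM and 34.6 to 38.5 CPM. Snhg9 (chr17:24719531-24719965, minus strand), a small nucleolar RNA host gene, was at 129.6 and 32.9 CPM (-1.98). It was at 29.1 and 41.3 CPM in control day 1 and day 2 and at 28.9 to 66.0 CPM in A20 cKO. The annotation lists Snhg9 as antisense, so its reads may belong in part to an overlapping gene. Pla2g15, a lysosomal phospholipase (306.7 and 106.2 CPM, -1.53), the mitochondrial elongation factor Gfm2 (105.5 and 39.3 CPM, -1.43) and Bcl2l1, which encodes the survival protein BCL-XL (116.6 and 44.6 CPM, -1.39), completed the 12. Gfm2 was at 29.6 and 30.9 CPM in control day 1 and day 2, below day 3, and at 36.9 to 55.5 CPM in A20 cKO. For Ptafr, Churc1, Snhg9 and Gfm2 naive thus stood above every other library. Pla2g15 differed, with 317.3 and 252.8 CPM in control day 1 and day 2, and Bcl2l1 was at 90.7 and 69.4 CPM there.

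The largest positive ratio rested on 1 barcode. Ttr, the thyroxine carrier transthyretin made by choroid plexus, had 0 UMIs in naive and 1597 at day 3, at least 118-fold higher against the floor of 3 counts, but 1265 of these UMIs (79.2%) were under a single barcode with 2276 UMIs. The same barcode was present in all 4 A20 cKO libraries, with 951 to 1126 Ttr UMIs under it, and in none of the other control libraries. Without it, Ttr at day 3 was 45.6 CPM. The other choroid plexus or ependymal markers were at 0 in naive, and the 5 markers summed to 237.1 CPM at day 3, to 0.213 and 0.0632 CPM in control day 1 and day 2 and to 134.1 to 424.3 CPM in A20 cKO.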

How the data were processed

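YFP-positive cells sorted from lumbar cord were captured with a 10x Genomics 3′ kit, given as a version 3.1 Next GEM kit in the labels and as version 3 in the methods. The authors deposited filtered matrices of raw UMI counts per gene and cell, made with Cell Ranger 2.1.1 on mm10 per the submitters' processing notes. Gene positions came from GENCODE M21 (27645 of 27998 gene identifiers matched), and promoter sequences from RefSeq. Counts were summed over kept cells and intervals were exact Poisson for CPM, exact conditional for ratios, Clopper-Pearson for shares and Newcombe for differences of shares. Python 3.11.15, numpy 2.4.6, pandas 2.3.3, SciPy 1.17.1 and matplotlib 3.10.9 were used, with edgeR 4.0.16 in R 4.3.3 for the alternative TMM scaling. The steps were checked on simulated data. Named genes were the 12 largest ratios in each direction at a mean of at least 50 CPM, leaving out mitochondrial, ribosomal-protein, sex-linked marker and predicted genes, plus members of the 24 gene lists. The cells compared and the lists were chosen with earlier results of these data known. No doublet caller was run. The sort gated out doublets before the cells were captured, so doublets formed at capture were not assessed. An alternative left out the 2% of cells with the most UMIs. A few members of the lists are not reported here by name.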

Additional observations from a re-analysis of the deposited data

Results flagged for a closer look

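In 4 of 292 genes looked at, the day 3 over naive ratios were opposite in control and A20 cKO mice and past 2-fold in both, with 1 library a group. The differences between the genotypes were not tested. Ddit4, the mTORC1 inhibitor, had a log2 ratio of 4.23 in control and -1.93 in A20 cKO, a difference of 6.16. For Tsc22d3, which the glucocorticoid receptor induces, the ratios were 1.77 and -1.06, a difference of 2.83. Apoe had -1.84 in control and 1.18 in A20 cKO, a difference of -3.02, and the lipase Lpl -1.31 and 1.08, a difference of -2.38. Without interferon-high cells the control ratios were -0.01 for Apoe and -0.41 for Lpl, within 2-fold. For Ddit4 and Tsc22d3 the naive levels differed between the genotypes, with 9.87 and 256.4 CPM for Ddit4 and 93.2 and 456.2 CPM for Tsc22d3 in control and A20 cKO naive, whereas for Apoe the naive levels (1113 and 853.9 CPM) were nearer than those at day 3 (310.0 and 1928 CPM).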

How the results depend on the processing

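No paired analysis was possible because each group was 1 pooled library and no value comes from a test. The counts of 451 higher and 154 lower genes depended on the level limit: 205 and 61 at a minimum mean of 50 CPM, 1314 and 1476 with no minimum, and 727 higher at a minimum of 100 UMIs over the pair of sums, since fewer or more genes then entered. Without interferon-high cells 232 genes were lower. All other settings tried gave 368 to 519 higher and 143 to 193 lower genes, and the scalings moved the median gene by at most 0.03. The difference in the mitotic share, in percentage points, was 10.4 without thinning, 4.78 at 1000 UMIs, 11.6 with 1 gene fewer and 5.92 with 1 gene more. That of S-phase cells was 5.02 without thinning, 0.769 at 1000 UMIs (-0.111 to 1.30, so no longer apart from 0) and 1.17 with 1 gene more. For interferon-high cells it was 36.3 without thinning, 40.7 at 1000 UMIs and 42.6 with 1 gene fewer, and for chemokine-high cells 15.8, 5.94 and, with 1 gene more, 4.97.

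Of 4768 log2 ratios of 298 genes over 16 settings, 4460 stayed within the counting interval. A change of sign was seen in 102 values of 72 genes, of which 15 were values of genes past 2-fold. Interferon-high cells were left out by their interferon-list transcripts before thinning (271 naive and 242 day 3 cells stay). By construction this lowers those genes: Tor3a -0.058, Ifih1 -0.023, Zbp1 -0.043, Isg15 -0.088, Dhx58 -1.14, Rtp4 -1.01 and Parp14 -0.014. In the same setting Mcm7 was -0.50, Ccl5 -1.27, Tap1 -0.088 and Tnf -0.38, for which the cause was not tested. Among the 24 genes named by the largest ratios, that setting alone ended a 2-fold difference, for Zbp1, Apoe (-0.01) and Pla2g15 (-0.97). Without mitotic and S-phase cells Tyms was -0.032, Mcm7 -0.077, H2afx -0.066 and Hist1h2ap -1.20, also by construction for the genes that define those cells. Ttr ranged from 3.36, without cells holding 2 markers of another type, to 9.36. Of 382 list medians 7 left an interval set by the spread of the ratios of the list's members, not by counting error. For the shortest lists this interval is the full range of the members, so few medians could leave it. A change of sign was seen in 16 medians of 8 lists, all of lists with a median within 0.28 of 0. The naive library sets the precision, since a gene at 20 CPM rests on few UMIs there, and the floor of 3 counts is 1.85 CPM. The exact upper limit of 0 UMIs is 2.28 CPM.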

Other observations

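Ifitm3, Mbp, Spp1 and Tnf were picked here after their values were seen. Ifitm3 lies outside the lists, Mbp is among the oligodendrocyte markers, and Spp1 and Tnf are among the cytokines described above. Ifitm3, a membrane protein that blocks virus entry, went from 59.2 CPM in naive to 560.6 at day 3 (3.23), with 780.6 CPM in A20 cKO naive. Mbp, the myelin basic protein transcript of oligodendrocytes, was at 24.7 and 80.3 CPM. Within day 3, cells with at least 3 chemokine genes had an interferon-list sum 0.93 higher and a cytokine sum 0.85 higher on the log2 scale than the rest, with Spp1 3.27 and Tnf 1.76 higher, and these cells had a median of 3688 UMIs against 3376 over all thinned day 3 cells.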
